A study of Homo sapiens with 16 samples.

Results

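The RNA exosome subunit mRNAs are the 10 genes EXOSC1 to EXOSC10, chosen by gene name, and all 10 were listed among the 16324 genes of both deposited tables. The study sequenced RNA that came down with tagged proteins (RIP-seq). The cells are labelled UM-SCC-1, a head and neck squamous carcinoma line. The cells stably expressed Strep-tagged ALKBH5, Strep-tagged RBM33 or the Strep vector (Vec) from selected lentivirus. StrepTactin-XT pull-downs numbered 3 for ALKBH5, 2 for RBM33 and 3 for Vec, with as many input libraries for each. ALKBH5 removes the methyl mark m6A from RNA, and RBM33 is an RNA-binding protein that the series title calls an m6A reader. The files used here hold the authors' own edgeR comparison for each bait, both named siCtrl, with a log2 fold change, average log2 CPM (a read count scaled to library size), F and p-values per gene. They hold no value per library, so depth is unknown here and no SD or n can be given.

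Neither table names its groups or the direction of its ratio, so values are called positive or negative as printed there. Whether replicates are separate cultures is not in the labels, so the p-values may measure technical spread only. The tables did not carry the defining markers of the labelled cell type: of 14 squamous epithelial genes checked, 13 were not listed, KRT5, KRT14 and TP63 among them. The one listed, ITGB4, had an average log2 CPM of 1.02 in the ALKBH5 comparison and 1.65 in the RBM33 comparison of the authors' deposited tables. The neurofilament mRNA NEFL had 8.10 and 7.42 there, higher than 97.4% and 94.7% of protein-coding genes. The marker list was written after the tables were seen, and its part in the values below was not tested.

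The exosome is the main machine that degrades RNA from its 3′ end in both nucleus and cytoplasm. A ring of 6 subunits, EXOSC4 to EXOSC9, forms a barrel whose domains resemble the bacterial enzyme RNase PH but are catalytically inactive in humans. A cap of 3 RNA-binding subunits, EXOSC1 to EXOSC3, sits on top, and RNA threads through to the nuclease DIS3 below, while EXOSC10 is a second nuclease of the nuclear complex. The exosome trims ribosomal and small nucleolar RNA precursors and removes promoter transcripts and faulty mRNAs. These data measure the mRNAs that encode the subunits, not the complex or its activity.

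The ring subunits EXOSC4, EXOSC5 and EXOSC9 had negative log2 fold changes past the threshold in both comparisons, and EXOSC3 and EXOSC8 passed it for RBM33. EXOSC10 and EXOSC6 lay close to 0 or slightly above it. No subunit was called positive in either of the authors' deposited tables. A gene is called here at the authors' adjusted p under 0.05, taken over all genes of the table. In the ALKBH5 comparison of the authors' deposited tables, 3 of 10 subunits were called negative, against 29.1% of all genes and 33.3% of protein-coding genes. That count is near the background and is not a result about the subunits. In the RBM33 comparison of the authors' deposited tables, 5 of 10 were called negative, against 27.0% of all genes and 31.2% of protein-coding genes. Called negative in both comparisons were 3 of 10 subunits, beside 3876 of all 16324 genes and 3648 of 13210 protein-coding genes. That count, too, is near the background. The 0 positive calls stand beside 30.5% of all genes and 27.5% of protein-coding genes called positive in the ALKBH5 comparison by the authors' edgeR fit. For RBM33 they stand beside 24.0% of all genes and 21.5% of protein-coding genes. At an unadjusted p under 0.05, 1 subunit was positive for ALKBH5, EXOSC6, and 0 for RBM33, beside 5287 and 4412 of all 16324 genes. Negative at that unadjusted p were 3 subunits for ALKBH5 and 6 for RBM33, beside 5022 and 4860 of all genes. The median log2 fold change over the 10 subunits in the authors' deposited tables was -0.34 for ALKBH5 and -0.69 for RBM33. The medians of protein-coding genes were -0.08 and -0.13, and those of all genes 0.03 and -0.02. With 10 members and no library values, these counts and medians are descriptions.

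**Figure D1:**
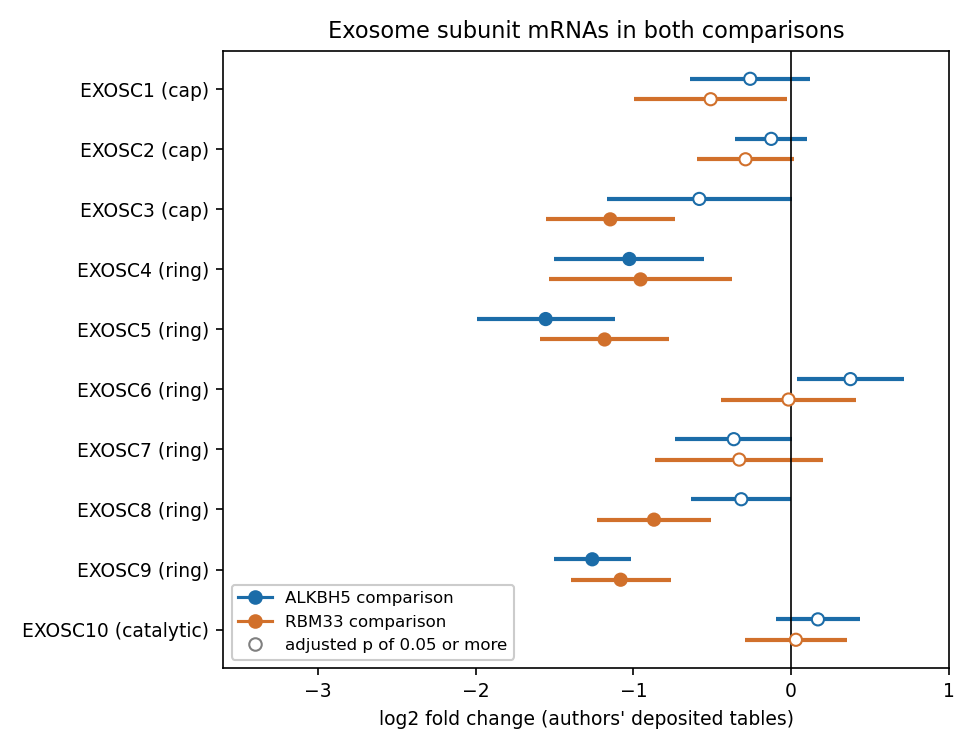
Log2 fold change of each exosome subunit mRNA (x axis) in the ALKBH5 comparison (blue, upper) and the RBM33 comparison (orange, lower). Lines are approximate 95% intervals worked out from the deposited F and p, and filled points have an adjusted p under 0.05. EXOSC4, EXOSC5 and EXOSC9 are filled in both, and EXOSC10 has intervals across 0 in both.

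EXOSC1 lies on chromosome 10 (97435909 to 97446017), EXOSC2 on chromosome 9 (130693721 to 130704894), EXOSC6 on chromosome 16 (70246778 to 70251940) and EXOSC7 on chromosome 3 (44975241 to 45036066). EXOSC8 lies on chromosome 13 (36998816 to 37009614) and EXOSC10 on chromosome 1 (11066618 to 11099869), all in hg38. Errors were worked out from the deposited columns: the standard error is the size of the log2 fold change over the square root of F. The total degrees of freedom that link each F to its p came to 13.2 for 9 subunits and 11.9 for EXOSC3 in the ALKBH5 comparison, and 11.2 for all 10 in the RBM33 comparison. The intervals are approximate, since edgeR's fold changes may be shrunk slightly.

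The cap subunits bind the RNA that enters the barrel. EXOSC3, which is mutated in a form of pontocerebellar hypoplasia, had the most negative cap value in both comparisons of the authors' deposited tables. The authors' deposited table put it at -0.58 for ALKBH5 (interval -1.17 to 0.00, adjusted p = 0.0813). For RBM33 the authors' deposited table gave -1.15 (interval -1.56 to -0.74, adjusted p = 0.000378), a ratio of 2.21-fold, and this was the only cap subunit called. Its standard error of 0.27 for ALKBH5 was the largest among the subunits there.

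EXOSC1 stood at -0.26 (interval -0.64 to 0.12, adjusted p = 0.223) for ALKBH5 and -0.51 (interval -0.99 to -0.03, adjusted p = 0.0744) for RBM33 in the authors' deposited tables. It was not called in either, although its RBM33 interval, which is not adjusted for many genes, lay below 0. EXOSC2 stood nearest to 0 of the cap, at -0.13 (interval -0.35 to 0.10, adjusted p = 0.325) and -0.29 (interval -0.60 to 0.02, adjusted p = 0.109) in the authors' deposited tables. All 3 cap values were below 0 in both comparisons. Of 13210 protein-coding genes, 7013 were below 0 for ALKBH5 and 7233 for RBM33. For ALKBH5, the authors' edgeR fit called 0 of 3 cap subunits, with 0 also at an unadjusted p under 0.05. It called 27.5% of protein-coding genes positive and 33.3% negative. For RBM33 it called 1 of 3 negative, beside 31.2% of protein-coding genes, and 2 of 3 were negative at an unadjusted p under 0.05.

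The ring subunits spread more widely than the cap. EXOSC5 had the lowest value of the 10 in each of the authors' deposited tables, -1.56 for ALKBH5 (interval -1.99 to -1.12, adjusted p = 2.01e-05) and -1.18 for RBM33 (interval -1.59 to -0.77, adjusted p = 0.000313). These are ratios of 2.94-fold and 2.27-fold on the negative side. EXOSC4, its neighbour in size on chromosome 8 (144078648 to 144080648, hg38), had -1.03 (interval -1.50 to -0.55, adjusted p = 0.00123) and -0.95 (interval -1.54 to -0.37, adjusted p = 0.0106) in the authors' deposited tables. EXOSC5 (chromosome 19, 41386374 to 41397359) and EXOSC4 have the shortest listed lengths of the subunits, 1368 and 1386 bases.

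EXOSC9, an autoantigen in overlap syndromes of polymyositis and scleroderma, had the largest F of the 10 in both of the authors' deposited tables. Its log2 fold change was -1.26 for ALKBH5 (adjusted p = 8.38e-07, interval -1.51 to -1.01) and -1.08 for RBM33 (interval -1.40 to -0.76, adjusted p = 0.000102) in the authors' deposited tables. EXOSC9 (chromosome 4, 121801318 to 121817021) had an average log2 CPM of 6.95 and 7.36 per the authors' deposited tables. Its intervals were 0.49 and 0.64 log2 units wide.

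EXOSC8 was called for RBM33 at -0.87 (interval -1.23 to -0.51, adjusted p = 0.00105) and missed the threshold for ALKBH5 at -0.32 (interval -0.63 to 0.00, adjusted p = 0.0805) in the authors' deposited tables. Passing in one comparison and not in the other does not show that they differ. EXOSC7 was called in neither of the authors' deposited tables, at -0.36 (interval -0.73 to 0.01, adjusted p = 0.0851) and -0.33 (interval -0.86 to 0.20, adjusted p = 0.282).

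EXOSC6 was the exception of the ring. Its log2 fold change of 0.38 for ALKBH5 just missed the threshold in the authors' deposited table (interval 0.04 to 0.72, adjusted p = 0.0540). With the adjustment restricted to genes of at least median abundance, the adjusted p was 0.0433 and EXOSC6 was the 1 subunit called positive. The share of genes called positive under that adjustment was not worked out, and it was 30.5% of all genes under the authors' own. For RBM33 the authors' deposited table gave EXOSC6 -0.02 (interval -0.45 to 0.41, adjusted p = 0.952). Of the 6 ring subunits, the authors' deposited tables called 3 negative for ALKBH5 and 4 for RBM33, beside 33.3% and 31.2% of protein-coding genes.

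EXOSC10, the nuclease subunit and another autoantigen of the same syndromes, was called in neither comparison. Its log2 fold change was 0.17 for ALKBH5 (interval -0.10 to 0.44, adjusted p = 0.252) and 0.03 for RBM33 (interval -0.29 to 0.36, adjusted p = 0.878) in the authors' deposited tables. The EXOSC10 row overlaps the antisense row EXOSC10-AS1 by 195 bases, and the strand setting of the counting is not given in the sources used here. Reads of the shared stretch could therefore count for either. EXOSC10-AS1 was scarce, with an average log2 CPM of 0.02 and 0.62, and stood at -0.70 (adjusted p = 0.491) and -1.84 (adjusted p = 0.151) in the authors' deposited tables.

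The start of EXOSC10 is shown because both rows lie over it: all 300 bases of this RefSeq window (GRCh38.p14, chr1:11099820-11100119, minus strand) fall inside the EXOSC10-AS1 row. Capitals mark the 50 bases that also belong to the EXOSC10 row.
EXOSC10 start: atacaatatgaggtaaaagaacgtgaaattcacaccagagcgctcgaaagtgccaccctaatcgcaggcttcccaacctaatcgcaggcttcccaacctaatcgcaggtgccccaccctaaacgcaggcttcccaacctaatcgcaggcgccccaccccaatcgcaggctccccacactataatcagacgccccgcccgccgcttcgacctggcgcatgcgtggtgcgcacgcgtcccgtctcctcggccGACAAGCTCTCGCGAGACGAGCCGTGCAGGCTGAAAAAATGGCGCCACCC
The rows share 195 bases, and the listed length of EXOSC10 is 5991 bases. The part of the shared stretch in the EXOSC10 values was not tested.

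Genes near EXOSC10 in log2 fold change were sought among 55 genes of RNA decay, by the distance over the 2 comparisons. Since EXOSC10 lay near 0 in both, this picks genes of small fold change and does not show a shared pattern. Of 13210 protein-coding genes, 4399 were called in neither comparison. TTC37, of the cytoplasmic SKI complex that feeds mRNA to the exosome, lay nearest (distance 0.09), at 0.16 and 0.12 per the authors' deposited tables. DIS3, the nuclease at the base of the barrel, was next (0.10), at 0.11 and -0.05 in the authors' deposited tables, and was called in neither (adjusted p = 0.526 and 0.799). TENT4B, a poly(A) polymerase that tags nuclear RNA for decay, was the third (0.16), at 0.33 and -0.02 per the authors' deposited tables. Unlike EXOSC10, TENT4B was called positive for ALKBH5 (adjusted p = 0.0296), and it was not called for RBM33 (adjusted p = 0.926).

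EXOSC5 was lowest, and EXOSC10 and EXOSC6 were highest, in each of the authors' deposited tables. The ALKBH5 minus RBM33 difference in log2 fold change was largest for EXOSC3 (0.56) and EXOSC8 (0.55), and lowest for EXOSC5 (-0.37). The intervals of the 2 comparisons overlapped for all 10 subunits. The differences were not tested, because the tables hold no library values and do not say whether they share libraries. Within the ALKBH5 order, neighbours such as EXOSC1, EXOSC8, EXOSC7 and EXOSC3 (-0.26, -0.32, -0.36 and -0.58 in the authors' deposited table) have intervals that overlap one another.

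**Figure D2:**
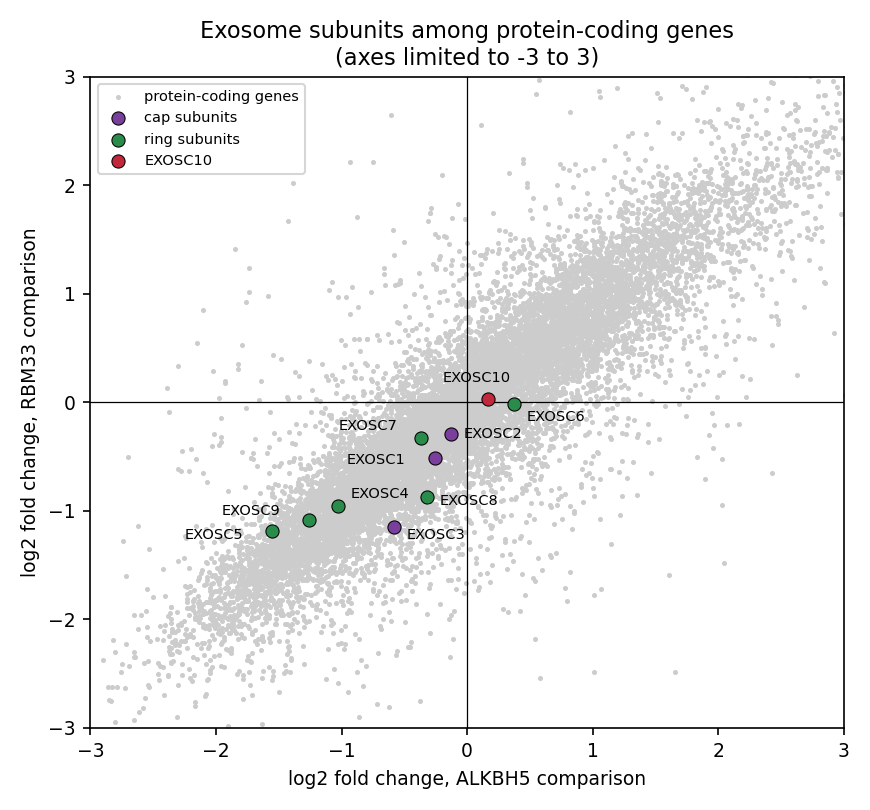
Log2 fold change in the ALKBH5 comparison (x axis) and the RBM33 comparison (y axis) for protein-coding genes (grey) and the exosome subunits (coloured by place in the complex), with both axes limited to -3 to 3. EXOSC5, EXOSC9 and EXOSC4 lie at the lower left, EXOSC3 and EXOSC8 lie lower for RBM33 than for ALKBH5, and EXOSC10 and EXOSC6 lie near the origin.

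Listed gene length goes with the fold change in these tables, so each subunit was also set beside protein-coding genes whose listed length is within 25% of its own. How the tables made this length is not stated, and it need not be that of 1 mRNA. Over 13210 protein-coding genes, Spearman's rho between length and log2 fold change was 0.41 for ALKBH5 and 0.45 for RBM33. Over the 10 subunits it was 0.43 and 0.37, a description across genes that share libraries.

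EXOSC4, one of the 2 shortest, was close to other short genes. The median log2 fold change of the 552 protein-coding genes of EXOSC4's length was -1.02 for ALKBH5 and -1.09 for RBM33, against -1.03 and -0.95 for EXOSC4 itself in the authors' deposited tables. For ALKBH5, EXOSC5 had -1.56 and lay above 24.7% of the 543 genes of its length, whose median was -1.03 in the authors' deposited table. For RBM33, per the authors' deposited table, it had -1.18 and lay above 45.9% of them, and their median was -1.09.

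EXOSC9 and EXOSC3 lay low for their listed length, which for EXOSC3 is uncertain, as given below. EXOSC9 (4710 bases) lay above 10.5% of the 3925 genes of like length for ALKBH5 and above 16.3% for RBM33, where the medians were -0.18 and -0.24. EXOSC3 (7660 bases) lay above 19.5% and 6.70% of 3763 genes, whose medians were 0.19 in both. EXOSC8 lay above 54.4% of genes of its length for ALKBH5 and 34.6% for RBM33. The other 5 subunits, EXOSC1, EXOSC2, EXOSC6, EXOSC7 and EXOSC10, lay above 44.6% to 67.7% for ALKBH5 and 47.8% to 56.9% for RBM33.

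**Figure D3:**
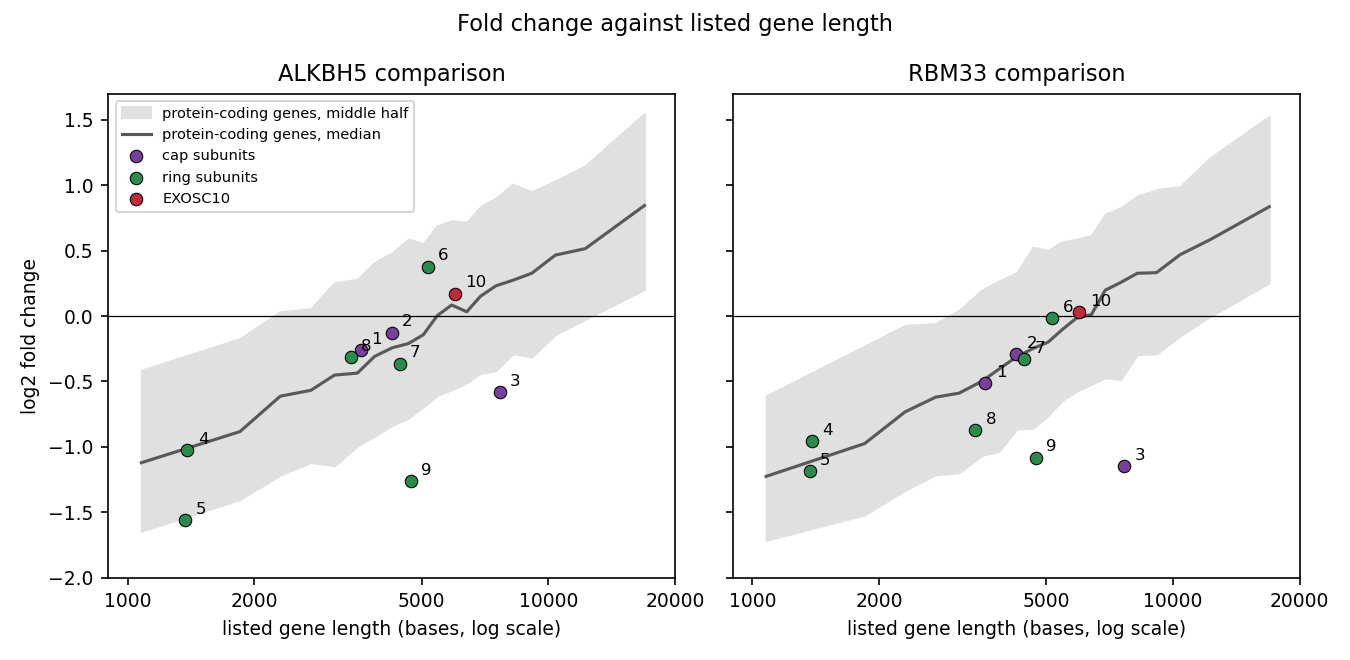
Log2 fold change (y axis) against listed gene length (x axis, log scale) in the ALKBH5 (left) and RBM33 (right) comparisons. The line and band are the median and interquartile range of protein-coding genes in 20 length bins, and numbered points are EXOSC1 to EXOSC10. Points 9 and 3 lie below the band in both panels, point 4 lies within it in both, and point 5 lies at its lower edge for ALKBH5 and within it for RBM33.

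The length of EXOSC3 may not be that of its own mRNA. Its row spans 72884 bases on chromosome 9 (37759234 to 37832117), 13.5 times the 5379 bases of the RefSeq gene. It lies wholly inside the listed protein-coding row AL138752.2 on the same strand. That row stood at -1.18 and -1.56 in the ALKBH5 and RBM33 comparisons (adjusted p = 2.70e-05 and 2.42e-05 per the authors' deposited tables). Reads cannot be assigned between these 2 rows here, so the EXOSC3 values and its length are uncertain. EXOSC7 has the other same-strand overlap, 34519 of its 60826 bases, with the scarce CLEC3B (average log2 CPM 0.58 and -0.32 in the authors' deposited tables). CLEC3B was called positive for ALKBH5 (1.61, adjusted p = 0.0409) and not called for RBM33 (-1.59, adjusted p = 0.259) in the authors' deposited tables. The EXOSC7 row is 1.67 times the RefSeq span. The EXOSC4 row, in contrast, covers 2001 bases, 0.121 of the RefSeq span.

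Opposite-strand rows overlap more of the subunits: 7 of 10 overlap some listed gene, and 2 on the same strand. EXOSC9 shares 578 bases with CCNA2, a cyclin, whose log2 fold changes were -1.21 (adjusted p = 2.17e-06) and -1.31 (adjusted p = 3.16e-05) in the authors' deposited tables, close to those of EXOSC9. EXOSC8 shares 1446 bases with ALG5 (-1.52 and -1.54) and 303 with SUPT20H (-0.48 and -0.89), all 4 values called in the authors' deposited tables. EXOSC7 shares 945 bases with ZDHHC3, called negative in each of the authors' deposited tables (-0.59 and -0.82). EXOSC4 shares 618 bases with the scarce AC109322.1, a long noncoding RNA called in neither of the authors' deposited tables (1.13 and 1.77). EXOSC3 also overlaps TRMT10B (-0.97 and -0.95, both called) and DCAF10 (-0.31 and 0.03, neither called) in the authors' deposited tables. EXOSC5 lies wholly within the span of AC011462.1, which was called in neither of the authors' deposited tables (-0.50 and -0.28). BCKDHA, 449 bases from EXOSC5, was also called in neither of the authors' deposited tables (-0.53 and -0.31). EXOSC1 overlaps none, but ZDHHC16, on the opposite strand 153 bases away, was called negative in each of the authors' deposited tables (-0.87 and -1.02). EXOSC6 overlaps none. SMG1P7, on the same strand as EXOSC6 and 166 bases away, was called positive in each of the authors' deposited tables (1.86 and 1.94). AARS1, on the same strand 43 bases away, was called in neither of the authors' deposited tables (0.17 and 0.25). AARS1 was more abundant than EXOSC6, with an average log2 CPM of 8.05 and 8.01 against 4.87 and 4.76 there. The part of these neighbours in the subunits' values was not tested.

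Levels were set side by side per length, as averages over the libraries of each fit. Average CPM per kilobase of listed length was highest for EXOSC2, EXOSC9 and EXOSC5 in the ALKBH5 comparison (27.9, 26.3 and 24.8), followed by EXOSC10 (18.5) and EXOSC4 (13.4). EXOSC8 (9.67), EXOSC7 (7.69), EXOSC6 (5.66), EXOSC1 (4.97) and EXOSC3 (3.77) followed, the last resting on its uncertain length. In the RBM33 comparison EXOSC9 came first (34.8) and EXOSC3 last (4.28). Levels did not order the fold changes: across the 10 subunits Spearman's rho between average log2 CPM and log2 fold change was -0.03 for ALKBH5 and 0.16 for RBM33. All 10 subunits were at least at the table's median average log2 CPM of 4.05.

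In a list of exosome cofactor and nuclease mRNAs, some were called positive and some negative, and its genes need not all act with the exosome. Cofactors choose what the exosome degrades: the helicase MTREX works in the nucleus with adaptors, and the SKI complex in the cytoplasm. For ALKBH5, the authors' deposited table called 9 of 25 cofactor and nuclease genes positive (36%) and 12 negative (48%), beside 27.5% and 33.3% of protein-coding genes. For RBM33, the authors' deposited table called 8 positive (32%) and 9 negative (36%), beside 21.5% and 31.2%. Their medians were -0.14 and -0.05, with values from -2.10 to 1.68 and from -2.33 to 1.93. Listed length, with a median of 6664 bases over this list and 5228 over protein-coding genes, is not taken into account in these shares. Its part in them was not tested. MTREX itself was called negative in each of the authors' deposited tables, with log2 fold changes of -0.40 and -0.39 (adjusted p = 0.00845 and 0.0401). DIS3L, the cytoplasmic relative of DIS3, was called negative in each of the authors' deposited tables, at -0.53 and -0.51 (adjusted p = 0.00211 and 0.0197).

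The largest positive cofactor was ZFC3H1, which links the exosome to polyadenylated nuclear RNA, at 1.68 (adjusted p = 5.36e-07) and 1.93 (adjusted p = 2.08e-05) in the authors' deposited tables. NRDE2, a partner of MTREX, had 1.58 and 1.44, and SKIV2L, the helicase of the SKI complex, 1.20 and 1.45, all called in the authors' deposited tables. The largest negative ones, MPHOSPH6 (-2.10 and -2.33) and C1D (-1.69 and -1.47), encode small nuclear proteins that bind the exosome, and were called in both of the authors' deposited tables. RBM7, an RNA-binding adaptor, was called for ALKBH5 (-0.98, adjusted p = 0.00692) and not for RBM33 (-0.68, adjusted p = 0.0573) in the authors' deposited tables. NCBP2, of the nuclear cap-binding complex, was called in both of the authors' deposited tables (-0.89 and -1.14).

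Another route of decay removes the poly(A) tail and then the cap and degrades RNA from the 5′ end. A list of 30 genes joined tail removal, cap removal and 5′ decay, and its genes need not belong to that route alone. For ALKBH5, the authors' deposited table called 5 of these 30 genes positive (16.7%) and 18 negative (60%), beside 27.5% and 33.3% of protein-coding genes (list median -0.42). For RBM33, the authors' deposited table called 5 positive (16.7%) and 15 negative (50%), beside 21.5% and 31.2% (list median -0.46). These shares take no account of listed length, whose median was 5696 bases over the list and 5228 over protein-coding genes. The deadenylase PAN2 (2.77 and 2.49), its partner PAN3 (1.60 and 0.98) and the nuclease XRN1 (0.79 and 1.14) were called positive in each of the authors' deposited tables. LSM3 (-2.25 and -2.20), LSM5 (-1.72 and -2.12), LSM1 (-1.72 and -1.54) and LSM4 (-1.60 and -1.95) were called negative in each of the authors' deposited tables. They belong to the ring of LSM1 to LSM7 that binds shortened tails, a group singled out after its values were seen. The authors' deposited tables called 7 of 7 of that group negative for ALKBH5 and 6 of 7 for RBM33, beside 33.3% and 31.2% of protein-coding genes. Its median listed length was 2861 bases, and the part of length in these counts was not tested.

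**Figure D4:**
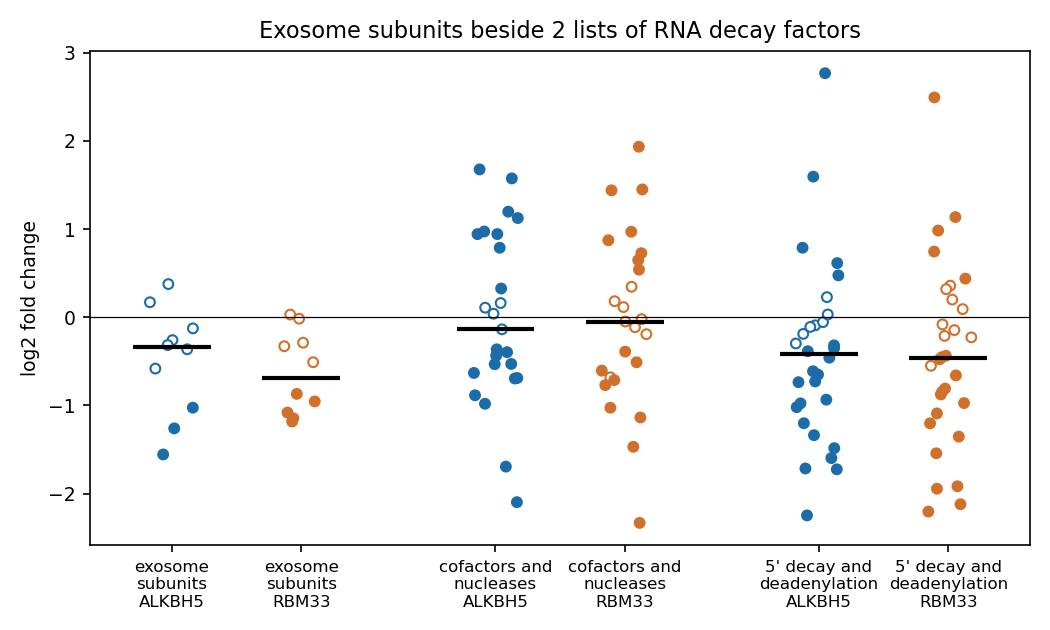
Log2 fold change (y axis) of single genes in 3 lists, with the ALKBH5 comparison (blue) left of the RBM33 comparison (orange) in each. Bars are medians, filled points have an adjusted p under 0.05, and horizontal position within a column is arbitrary. The exosome subunits have no filled point above 0, while both other lists have filled points on either side.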

How the data were processed

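Per the submitters' processing notes, the tools named are cutadapt 1.18, HISAT2 2.1.0, featureCounts of Subread 1.6.4 and edgeR 3.24.3, with build hg38. Not given in the sources used here are the annotation, low-count filter, contrast and strand setting. The authors deposited 2 tables that, per the file headers, hold log2 fold changes and average log2 CPM. The same deposited tables hold an F score and a p-value with its adjustment by Benjamini-Hochberg, which was recomputed over 16324 genes with the same outcome. From these columns, standard errors and 95% intervals were computed (Python 3.11.15, scipy 1.17.1) after a test on simulated data. No count model could be run, since no library values are held.

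All 10 members were named, with MTREX, DIS3 and DIS3L, and from each decay list up to 3 called genes of largest size per direction and table, plus rows within 1000 bases of a member. Members and lists were chosen with earlier results of these data known. Alternatives were an adjusted p under 0.01, a minimum of 1 log2 unit, adjustment over protein-coding or abundant genes only, and centring on protein-coding genes.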

Additional observations from a re-analysis of the deposited data

How the results depend on the processing

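The 20 subunit calls, 10 in each of the authors' deposited tables, kept their side of the threshold when p was adjusted over protein-coding genes only. An adjusted p under 0.01 lost EXOSC4 for RBM33 (0.0106). Adjusting over genes of at least median abundance gave 1 positive subunit for ALKBH5, EXOSC6, and the share of genes called positive that way was not worked out. Asking also for at least 1 log2 unit left 3 negative subunits for RBM33 and 3 for ALKBH5. It left 4 positive and 2 negative cofactor and nuclease genes for ALKBH5, and 3 and 4 for RBM33. It left 2 positive and 8 negative genes of the 5′ decay and deadenylation list for ALKBH5, and 2 and 8 for RBM33. The share of all genes passing at that size was not worked out, so these counts have no background beside them. Centring on protein-coding genes moved the subunit medians to -0.26 for ALKBH5 and -0.56 for RBM33. It changed no count, but it shifts only the sign cut and leaves each adjusted p as it was. No called subunit lay near enough to 0 for its sign to change, so this setting could not alter the subunit counts. No paired analysis was possible because the tables hold no value per library, so leaving out single libraries was not possible either. Depth is unknown here.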
